A study of Mus musculus with 12 samples.

Results

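Genes of the developing red blood cell were followed in ventricles of mouse embryos, as a measure of the blood that the dissected tissue pools carried. The group holds 9 genes: the transcription regulators Klf1, Gata1 and Hemgn, the membrane and membrane skeleton genes Slc4a1, Epb42, Rhag and Ank1, the transferrin receptor Tfrc and the globin chaperone Ahsp. They were chosen by gene symbol, through probe sets whose platform annotation gave that symbol alone, and the set with the highest mean over the 12 arrays stood for a gene. Of the 9 genes 8 were measured in this way, of 18194 genes in all, and Ahsp was not analysed here. The 8 genes have 19 probe sets among the 45101 of the array, and a filter on dim genes, tried as another setting, kept 5 of the 8 and left out Gata1, Epb42 and Rhag.

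The arrays were made from left and right ventricles (LV and RV) of embryos at 14.5 days post coitum. Wild-type embryos (WT) were of the CD1 stock, and knockout embryos (KO) were Nos3-/- of strain B6.129P2-Nos3tm1unc/J, which lack a working gene for endothelial nitric oxide synthase in every cell. Each of the 4 groups (WT_LV, WT_RV, KO_LV and KO_RV) had 3 arrays, each with RNA of a pool of 15 to 30 embryos, so a value is an average over many hearts and p-values measure the spread between pools. The labels name no treatment for any group. All WT pools came from one stock and all KO pools from the other strain, so in each genotype comparison the Nos3 allele and the strain cannot be told apart. Values are log2 expression after RMA, a difference of 1 is a doubling. Precision is limited by the number of arrays, 3 a group.

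Red cells of the mouse embryo come in 2 waves. Primitive erythroblasts from the yolk sac circulate first, still with a nucleus, and carry embryonic globins, while definitive red cells mature in the fetal liver and carry adult-type globins. Klf1 binds CACCC boxes and Gata1 binds GATA sites, and together they switch on globin, haem and membrane genes in both waves. Ventricular muscle makes little or none of most of these RNAs, so in a heart sample they come mainly from red cells and their precursors. Tfrc, the receptor that takes up iron-loaded transferrin, is an exception because every dividing cell uses it, and Ank1 is another because striated muscle makes a short ankyrin from the same gene.

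The promoters below are shown because the regulators in the group are known to act through such sites. RefSeq promoter windows (assembly GRCm38.p6) were found for 6 of the measured genes, 7 windows in all, and the 250 bases before each start were searched on both strands for GATAA, which reads TTATC on the other strand, and for CACCC, which reads GGGTG there. Capitals mark these letters, and each sequence is written 5′ to 3′ on the gene's own strand. Klf1 is at chr8:84901862-84901981 (plus strand), Hemgn at chr4:46404184-46404303 (minus strand), Rhag at chr17:40811106-40811135 (plus strand) and Epb42 at chr2:121037086-121037115 (minus strand).
Klf1: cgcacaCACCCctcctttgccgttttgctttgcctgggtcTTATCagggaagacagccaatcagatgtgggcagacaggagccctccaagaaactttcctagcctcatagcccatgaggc
Hemgn: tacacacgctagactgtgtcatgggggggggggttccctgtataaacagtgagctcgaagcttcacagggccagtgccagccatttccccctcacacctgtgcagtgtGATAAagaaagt
Rhag: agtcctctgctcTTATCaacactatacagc
Epb42: gtctctatttccTTATCtcgttcaaacaga
The GATA letters lay between positions -80 and -76 from the start in Klf1, -12 and -8 in Hemgn, -31 and -27 in Rhag, and -226 and -222 in Epb42. They were in 4 of the 7 windows, against 22.6% of 32851 promoter windows of the same length. CACCC was in 5 of the 7 windows, against 52.0%. Tfrc has 2 of the windows, both with CACCC, so by gene each motif was in 4 of 6. A match is a description of the letters and does not show that a factor binds there.

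Several measures of the arrays bear on the values that follow. The deleted gene itself, Nos3, was called lower in KO in each ventricle (limma, adjusted p = 0.0376 in LV and 0.00983 in RV), but its KO values stayed between 7.77 and 8.23 in RV; where its probe set lies relative to the targeted part was not analysed here. The poly-A control RNAs read lower in the KO pools of LV, at 7.53 to 7.90 against 8.26 to 8.32 (two-sided exact permutation p = 0.1, the smallest that 3 against 3 arrays allow). At the same p, the hybridisation controls of LV were at 11.33 to 11.41 in KO against 11.56 to 11.70 in WT, and the excess of the 3′ over the 5′ set of Gapdh, a sign of RNA quality, was 0.24 to 0.32 against 0.36 to 0.40. The same excess for Actb overlapped in LV, at 1.01 to 1.18 in KO and 1.13 to 1.20 in WT (two-sided exact permutation p = 0.3). In RV the excess overlapped between the genotypes for both Gapdh and Actb. The part of these measures in the LV differences was not tested. In RV the poly-A controls ranged from 6.90 to 7.80 in KO and from 7.52 to 8.35 in WT, the highest on WT_RV replicate 3 (exact permutation p = 0.4). Heart muscle markers were high on every array, with a mean over 12 cardiomyocyte genes from 13.4 to 14.0. The array of WT_RV replicate 1 stood apart in fetal liver genes and in the red cell genes, so counts that change without it are given both ways.

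In the left ventricle 7 of the 8 genes had lower means in KO than in WT and Ank1 a higher one, but none passed the test across all genes, in which 30.9% of genes were called (18.6% higher in KO, 12.3% lower). At an unadjusted p under 0.05 limma counted 4 of the 8, of which 3 were lower and 1 was higher, beside 41.7% of all genes. The median difference was -0.44 over the 8 genes and -0.01 over all genes. In 5 of the 8 genes every KO pool lay below every WT pool, as was true of 20.6% of all genes, and in Ank1 every KO pool lay above, as in 23.8% of all genes. The groups hold pooled tissue. Fewer red cells, less of an RNA per red cell and less fetal liver tissue in the pools cannot be told apart.

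In the right ventricle the same 7 genes again had lower means in KO, and 2 of them, Slc4a1 and Klf1, passed the test. The background there was 8.19% of genes called, with 3.58% lower and 4.61% higher in KO. The median difference was -0.53 over the 8 genes and -0.04 over all genes. KO and WT pools did not overlap in 2 of the 8 genes, both lower in KO, beside 17.6% of all genes. The interaction of genotype and ventricle, which tests whether the difference between genotypes itself differs between the ventricles, called none of the 8 (limma, adjusted p from 0.511 to 0.947, and 0 at an unadjusted p under 0.05, beside 13.9% of all genes), with 0.022% of all genes called.

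**Figure D1:**
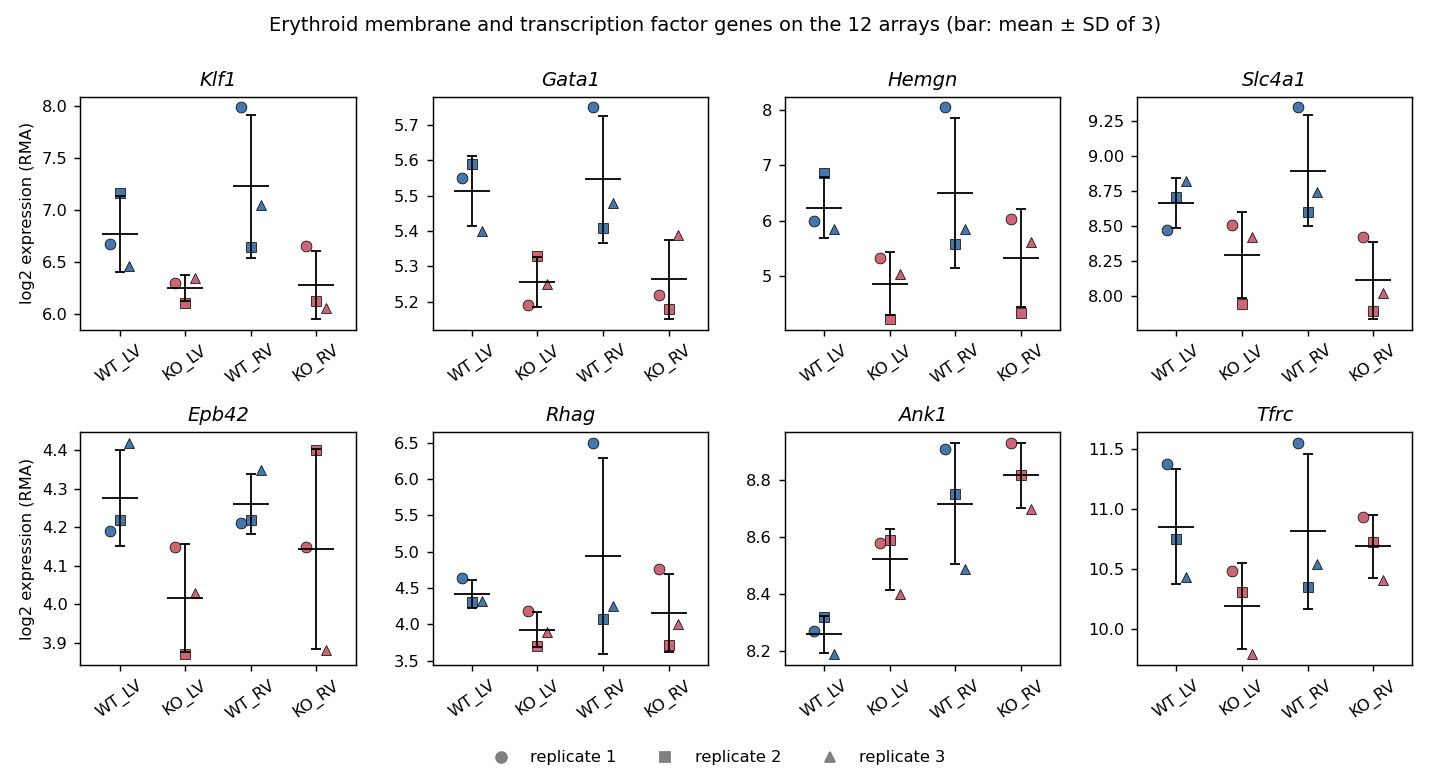
Each panel plots the log2 expression (RMA) of a gene on the 12 arrays by group, with the replicate number as the symbol, WT in blue, KO in red, and a bar for the mean ± SD of 3 arrays. KO means lie below WT means in both ventricles for every gene but Ank1, and WT_RV replicate 1 holds the highest value of 6 of the 8 genes, with a gap of 1.74 above the next array for Rhag.

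Klf1, the regulator that opens the globin and membrane genes in maturing erythroblasts, read 6.68, 7.17 and 6.46 in WT_LV and 6.30, 6.11 and 6.35 in KO_LV. All KO pools lay below all WT pools there. The WT_RV pools read 7.99, 6.65 and 7.05 and the KO_RV pools 6.66, 6.13 and 6.06 in KO, so the groups touched, with KO_RV replicate 1 just above WT_RV replicate 2. The RV difference was -0.95 (SE 0.28, 95% interval -1.54 to -0.36, limma adjusted p = 0.050, just under the threshold), a 1.93-fold lower mean in KO. The LV difference was -0.52 (SE 0.28, adjusted p = 0.174).

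The RV call of Klf1 was at the edge of the threshold and held in 8 of 24 other settings (differences from -1.24 to -0.37, adjusted p from 0.0185 to 0.526). Without WT_RV replicate 1, which holds the highest Klf1 value, the difference was -0.57 and the adjusted p 0.106. The call was also lost without WT_LV replicate 1, WT_RV replicate 3, any 1 array of KO_LV or any 1 array of KO_RV (adjusted p from 0.0508 to 0.155). With the replicate number as a fixed block it was kept (adjusted p = 0.0315).

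Gata1, the zinc finger factor at the head of the erythroid programme, had small differences and tight replicates. It read 5.55, 5.59 and 5.40 in WT_LV against 5.19, 5.33 and 5.25 in KO_LV. The RV values were 5.75, 5.41 and 5.48 for WT and 5.22, 5.18 and 5.39 for KO. In both ventricles every KO pool lay below every WT pool. The differences were -0.26 in LV (SE 0.10, adjusted p = 0.0742) and -0.28 in RV (SE 0.10, adjusted p = 0.105), and neither passed.

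Hemgn, a nuclear protein of blood progenitors and erythroblasts, had the largest differences and the widest spread of the group. Its values were 5.99, 6.86 and 5.85 in WT_LV and 5.32, 4.22 and 5.03 in KO_LV. The LV groups did not overlap, and the difference of -1.38 (SE 0.57, 95% interval -2.60 to -0.16) had an adjusted p of 0.0812. In RV the values were 8.05, 5.58 and 5.85 in WT and 6.03, 4.32 and 5.62 in KO. WT_RV replicate 1 stood more than 2 above the other WT_RV pools, and the difference was -1.17 (SE 0.57, adjusted p = 0.210). Without that array it was -0.39 in RV (adjusted p = 0.592), while in LV the same -1.38 then had an adjusted p of 0.0183. The LV difference was called in only 4 of 24 other settings (adjusted p up to 0.249).

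Slc4a1 encodes band 3, the chloride and bicarbonate exchanger that makes up much of the red cell membrane and anchors its skeleton. It read 9.35, 8.60 and 8.74 in WT_RV and 8.42, 7.89 and 8.02 in KO_RV. The groups did not overlap, and the difference was -0.79 (SE 0.20, 95% interval -1.22 to -0.36, limma adjusted p = 0.0278), a 1.73-fold lower mean in KO. In LV the WT pools were at 8.47, 8.71 and 8.82 and the KO pools at 8.51, 7.94 and 8.42. KO_LV replicate 1 lay within the WT range, and the difference of -0.38 (SE 0.20, adjusted p = 0.173) did not pass.

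The RV call of Slc4a1 held in 17 of 24 other settings (differences from -0.96 to -0.49, adjusted p from 0.0114 to 0.329). Without WT_RV replicate 1 the difference was -0.56 (adjusted p = 0.0694), and the call was also lost without KO_RV replicate 2 or KO_RV replicate 3 (adjusted p = 0.0995 and 0.0916). The direction was the same under each of the 24 settings.

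Slc4a1 has 3 probe sets, and the set used had a close second. That second set read 8.44, 8.75 and 9.20 in WT_LV against 8.31, 7.79 and 8.22 in KO_LV, with no overlap. Its RV values were 9.21, 8.68 and 8.80 in WT and 8.26, 7.78 and 8.11 in KO, again with no overlap. Over all probe sets it was called lower in KO in both ventricles, by -0.69 in LV (adjusted p = 0.0266) and -0.85 in RV (adjusted p = 0.0281), where the set used above gave adjusted p-values of 0.200 and 0.0395. So the LV call for band 3 depends on the probe set. Leaving out 1 array at a time kept the call of the second set in 9 of 12 fits in LV (adjusted p from 0.0155 to 0.104) and in 8 of 12 in RV (0.0146 to 0.105), and without WT_RV replicate 1 its RV difference was -0.69 (adjusted p = 0.0771). The third set, at a mean of 4.72, differed by -0.03 and -0.08.

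Epb42 encodes protein 4.2, which ties band 3 to ankyrin. Its values were 4.19, 4.22 and 4.42 in WT_LV and 4.15, 3.87 and 4.03 in KO_LV, without overlap (difference -0.26, SE 0.12, adjusted p = 0.130). In RV they were 4.21, 4.22 and 4.35 in WT and 4.15, 4.40 and 3.88 in KO, and KO_RV replicate 2 was the highest of the 6 (difference -0.12, adjusted p = 0.583). Its other probe set, at a mean of 3.42, differed by 0.07 in LV and -0.23 in RV.

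Rhag, the Rh-associated glycoprotein that forms a gas and ammonium channel in the same membrane complex, read 4.64, 4.30 and 4.32 in WT_LV and 4.18, 3.70 and 3.89 in KO_LV. The LV groups did not overlap (difference -0.50, SE 0.47, adjusted p = 0.461). Values in WT_RV were 6.50, 4.07 and 4.25, and in KO_RV they were 4.76, 3.72 and 4.0. WT_RV replicate 1 was 1.74 above the next of the 12 arrays, which widened the error shared by all groups. The RV difference was -0.78 (adjusted p = 0.312) with that array and 0.00 without it.

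Tfrc read 11.37, 10.75 and 10.43 in WT_LV and 10.48, 10.31 and 9.79 in KO_LV, with KO_LV replicate 1 inside the WT range. The LV difference was -0.66 (SE 0.29, adjusted p = 0.108). The WT_RV pools were at 11.55, 10.35 and 10.54 and the KO_RV pools at 10.93, 10.72 and 10.41, and the groups overlapped (difference -0.13, adjusted p = 0.820). Its 5 other probe sets, of which 3 are control sets of the array placed along the Tfrc transcript, differed by -0.25 to -0.07 in LV and by -0.30 to -0.18 in RV, and none was called. The LV difference was called in only 4 of 24 other settings (differences from -1.07 to -0.265, adjusted p up to 0.367). Among these were the poly-A control level as a covariate (-1.07, adjusted p = 0.0448), the fit without WT_RV replicate 1 (adjusted p = 0.0414) and the replicate number as a fixed block (0.00829).

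Ank1 went the other way in the probe set used. Ankyrin-1 links band 3 to spectrin in the red cell, and its short muscle form sits in the sarcoplasmic reticulum. It read 8.27, 8.32 and 8.19 in WT_LV and 8.58, 8.59 and 8.40 in KO_LV, all KO pools above all WT pools (difference 0.26, SE 0.11, 95% interval 0.03 to 0.50, adjusted p = 0.0844). Its RV levels were 8.91, 8.75 and 8.49 for WT and 8.93, 8.82 and 8.70 for KO, with overlap (difference 0.10, adjusted p = 0.596). The LV difference passed in only 5 of 24 other settings (differences from 0.05 to 0.36, adjusted p up to 0.764). Among these was the centring of arrays on their median (0.36, adjusted p = 0.0246).

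Between ventricles of the same genotype none of the 8 genes passed the test by limma (1 at an unadjusted p under 0.05 in each genotype, Ank1 both times, beside 17.1% and 10.3% of all genes), against 0.984% of genes called in WT (0.764% higher and 0.22% lower in RV) and 1.14% in KO (0.55% higher and 0.594% lower). Ank1 was the gene whose RV pools all lay above its LV pools, by 0.46 in WT (SE 0.11, adjusted p = 0.0698) and by 0.29 in KO (SE 0.11, adjusted p = 0.322). Of all genes 10.9% in WT and 9.24% in KO had RV pools entirely above LV pools, and 4.85% and 10.4% entirely below. The WT difference of Ank1 was called in 5 of 24 other settings, among them the fit without WT_RV replicate 3 (0.57, adjusted p = 0.00733).

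A second Ank1 probe set, at a mean of 6.89, differed more between the ventricles. It read 6.76, 6.40 and 6.43 in WT_LV and 7.27, 7.19 and 7.10 in WT_RV. In KO it read 6.67, 6.63 and 6.55 in LV and 7.39, 7.15 and 7.15 in RV. Over all probe sets it was called higher in RV in WT (0.66, adjusted p = 0.0213) and in KO (0.61, adjusted p = 0.0239), where the set used above gave 0.102 and 0.459. With 1 array left out at a time it was called in 9 of 12 fits in WT and 6 of 12 in KO, with differences from 0.59 to 0.77 and from 0.53 to 0.65; the KO call was lost without any 1 of the 6 KO arrays, and the WT call without WT_LV replicate 2 (adjusted p = 0.116), WT_RV replicate 1 (0.109) or WT_RV replicate 2 (0.0919). Which ankyrin transcript each probe set reads was not analysed here. Its genotype differences were small, from -0.04 to 0.20 over the same fits.

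**Figure D2:**
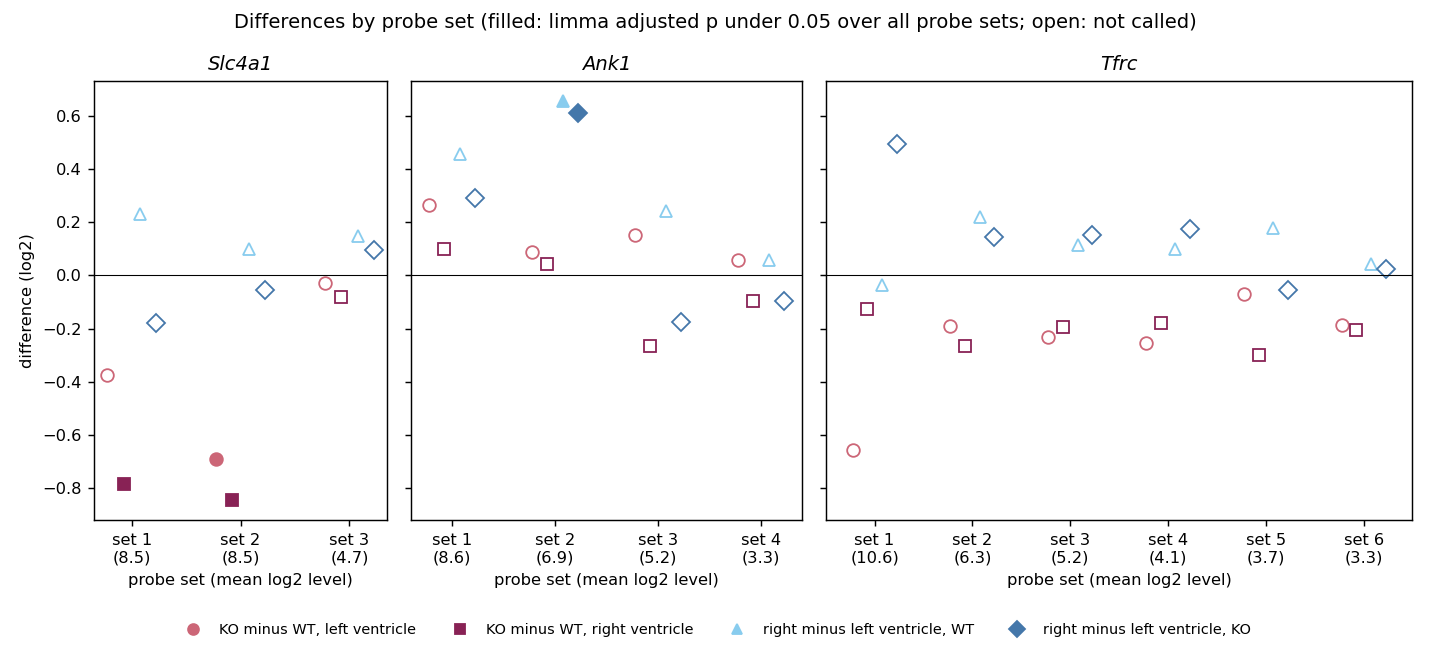
The differences (log2) of every probe set of Slc4a1, Ank1 and Tfrc are plotted by comparison, with sets ordered by their mean log2 level, which is given in parentheses; filled symbols have a limma adjusted p under 0.05 over all probe sets. The second Slc4a1 set is filled in both genotype comparisons and the first only in RV, while the second Ank1 set is filled in both comparisons of RV with LV.

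The 8 genes did not all vary together. Across the 12 arrays Klf1, Rhag, Hemgn and Slc4a1 followed the mean of the 7 other genes closely (Pearson r = 0.925, 0.923, 0.905 and 0.823), and Gata1 and Tfrc less so (0.773 and 0.710). Epb42 and Ank1 did not (0.272 and 0.121). After the group means were taken off, r was 0.945 for Rhag, 0.903 for Klf1, 0.854 for Hemgn and 0.619 for Ank1, and -0.172 for Epb42. These are descriptions over arrays that share 4 groups, and WT_RV replicate 1 weighs heavily in them.

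On that array the mean of the 8 genes, each centred on its own mean, was 1.04, against -0.05 and 0.09 on the other WT_RV arrays and -0.01 to 0.24 in WT_LV. KO arrays lay from -0.49 to -0.16 in LV and at 0.14, -0.35 and -0.24 in RV. The array held the highest value of 6 of the 8 genes, with gaps to the next array of 1.74 for Rhag, 1.19 for Hemgn, 0.82 for Klf1, 0.53 for Slc4a1, 0.18 for Tfrc and 0.16 for Gata1. Without it the RV median difference of the 8 genes moved from -0.53 to -0.16, 5 of the 8 were below 0, and none was called. In LV 3 of the 8 were then called lower, since the shared error fell: Gata1 (adjusted p = 0.0467), Hemgn (0.0183) and Tfrc (0.0414). Of all 18194 genes that fit called 5622 in LV and 1813 in RV, higher or lower.

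Most fetal liver genes moved with the red cell genes on these arrays. The liver is the site of definitive red cell production at this stage, and the list held 11 measured genes, of plasma proteins and a liver regulator, Hnf4a. Over the arrays the plasma protein genes had a Pearson r with the mean of the red cell genes from 0.73 (Apob) to 0.96 (Apoa1). Hnf4a did not follow that mean (r = 0.096), and read 5.56 on WT_RV replicate 1 against 5.80 and 5.97 on the other WT_RV arrays. Their mean level was 7.99, 6.08 and 6.20 in WT_RV, 6.20, 7.01 and 5.89 in WT_LV, 5.80, 5.25 and 5.60 in KO_LV, and 6.41, 5.69 and 5.85 in KO_RV. WT_RV replicate 1 was the highest of the 12, WT_LV replicate 2 the second and KO_LV replicate 2 the lowest, which were also the first, second and last arrays by the mean of the red cell genes. Alb, serum albumin, read 11.57 on WT_RV replicate 1 and 8.72 and 9.19 on the other WT_RV arrays. Alb was called lower in KO in LV by -2.26 (adjusted p = 0.0246) and not in RV (-1.33, adjusted p = 0.244).
In LV 3 of the 11 liver genes were called lower in KO, Afp (-2.42), Alb and Hnf4a (-0.40). They are 27.3% of the list, beside 30.9% of all genes called and 12.3% called lower. In RV none was called though all 11 were below 0, beside 8.19% of all genes called. Without WT_RV replicate 1, 6 were called lower in LV, where 5622 of all 18194 genes were called. In RV none was then called, 7 of 11 were below 0 and the median moved from -0.70 to -0.17. The part of fetal liver RNA in the red cell gene differences was not tested.

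**Figure D3:**
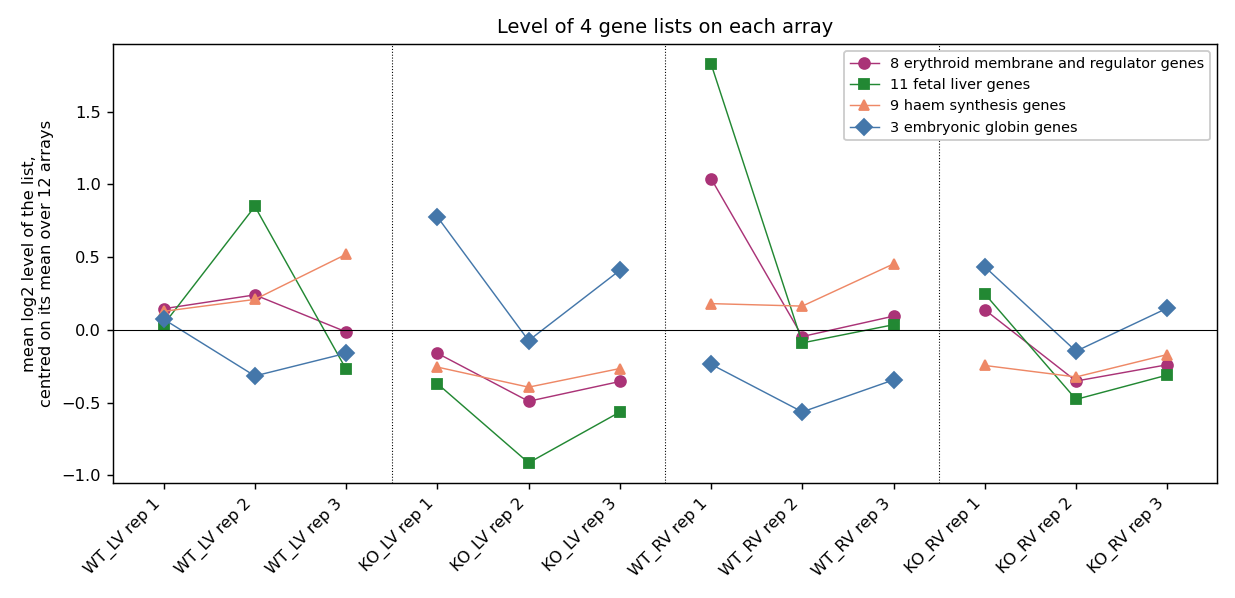
The mean log2 level of 4 gene lists, centred on the mean over 12 arrays, is plotted for every array, with lines joining arrays of a group only to guide the eye. The red cell genes and the fetal liver genes both peak on WT_RV replicate 1, at 1.04 and 1.83, while haem synthesis genes (0.18) and embryonic globins (-0.24) do not.

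The genes whose pattern over the 12 arrays was most like the mean of the 8 were Rbp4, Apoa1, Fgg, Kng1, Ambp, Ermap, Ugt2b34 and Lect2, with Pearson r from 0.977 to 0.947. Most of them encode plasma proteins that the liver secretes, such as retinol-binding protein (Rbp4), apolipoprotein A-I (Apoa1) and a fibrinogen chain (Fgg), while Ermap is a red cell membrane protein. Rbp4 read 8.99, 6.57 and 6.77 in WT_RV, 6.82, 7.67 and 6.65 in WT_LV, 6.03, 5.28 and 5.95 in KO_LV, and 6.91, 6.09 and 6.08 in KO_RV. Without WT_RV replicate 1, r was 0.945 for Rbp4, 0.894 for Ermap and 0.831 for Lect2; without the 2 arrays farthest from the median, WT_RV replicate 1 and KO_LV replicate 2, it was 0.921, 0.846 and 0.749. With the group means taken off, the leading genes were Serpina1b, Fgg, Rbp4, Igfbp1, Apoa1, Serpinc1, Ambp and Ermap (r from 0.967 to 0.931). Globin and haem synthesis genes followed the mean of the 8 less closely. With the group means left in, r ran from -0.38 (Hbb-y) to 0.40 (Hba-a1) for globins. For haem synthesis genes it ran from -0.40 (Ppox) to 0.68 (Slc25a38). Whether the mean of the 8 measures the blood in the pools was not tested.

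Of the globins, the cargo of the red cell, 2 of 3 embryonic genes were called higher in KO in LV and none in RV, and 1 of 3 adult-type genes was called lower in each ventricle. Over all genes 30.9% were called in LV and 8.19% in RV. Hba-x, the embryonic alpha-like globin, read 10.92, 10.31 and 10.88 in WT_LV and 11.75, 10.97 and 11.76 in KO_LV, every KO pool above every WT pool. It was higher in KO in LV by 0.79 (SE 0.22, limma adjusted p = 0.0150). The RV pools were at 10.75, 10.15 and 10.47 for WT and 11.34, 10.97 and 11.18 for KO, and the difference of 0.71 had an adjusted p of 0.0636. With the replicate number as a fixed block the RV difference was called (adjusted p = 0.00169), as it was without WT_RV replicate 1 (0.85, adjusted p = 0.0400). The labels do not name the replicate number as a batch.
Of the other embryonic globins, Hbb-y was called higher in KO in LV (0.37, adjusted p = 0.0120) and not in RV (0.28, adjusted p = 0.0958), and Hbb-bh1 in neither (0.36 and 0.60). With the poly-A control level as a covariate none of the 3 was called. The LV call of Hba-x was also lost without WT_LV replicate 2 (adjusted p = 0.0710), KO_LV replicate 1 (0.0615) or KO_LV replicate 3 (0.0674).

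Of the adult-type globins 3 of 6 listed genes were measured. Hbb-b2, an adult beta globin, read 9.91, 9.35 and 9.87 in WT_LV and 8.16, 8.28 and 8.37 in KO_LV. Its RV values were 8.97, 9.37 and 10.03 in WT and 7.93, 8.40 and 8.44 in KO. All KO pools lay below all WT pools in both ventricles, by -1.44 in LV (SE 0.23, adjusted p = 0.000554) and -1.20 in RV (adjusted p = 0.00558). With the mean of its probe sets the differences of Hbb-b2 shrank to -0.42 and -0.36, the latter not called (adjusted p = 0.0696). Hba-a1 (-0.27 and 0.02) and Hba-a2 (0.07 and 0.15) were not called. Group means were only 3.91 to 4.18 for the Hba-a1 set, near the lower end of the scale, and 6.44 to 6.68 for the Hba-a2 set. These 2 sets therefore say little on whether adult alpha globin RNA changed. Beta and alpha globin genes are near copies of each other and differ between mouse strains, so it is uncertain which copy a globin probe set reads, and the part of strain sequence in these values was not tested.

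Haem synthesis was the red cell list with the largest share called: all 9 measured genes in LV, 7 lower and 2 higher in KO, and 5 in RV, 4 lower and 1 higher. Alas2, the erythroid form of the first enzyme of the pathway, read 8.69, 8.69 and 9.63 in WT_LV and 7.93, 7.73 and 8.17 in KO_LV. The WT_RV pools read 8.57, 8.70 and 9.33 and the KO_RV pools 7.46, 7.58 and 7.89, again with no overlap. It was lower by -1.06 in LV (adjusted p = 0.00535) and -1.22 in RV (adjusted p = 0.00756), and without WT_RV replicate 1 the RV difference was -1.37 (adjusted p = 0.00772).
The next enzyme, Alad, was lower by -1.39 and -1.26, the mitochondrial iron importer Slc25a37 by -1.08 and -1.04, and ferrochelatase, Fech, which sets iron into the ring, by -0.95 and -0.97. Ppox was higher in KO by 0.50 and 0.67, and Cpox by 0.53 in LV; these act earlier in the mitochondrial part of the pathway than Fech. Without WT_RV replicate 1 the counts were the same 7 and 2 in LV and 4 and 1 in RV, unlike those of the membrane and regulator genes. With the replicate number as a fixed block Urod was also called lower in RV (-0.34, adjusted p = 0.0226). With the poly-A control level as a covariate, 6 were lower and none higher in LV, and Alas2 was not called there (-0.65, adjusted p = 0.0984). With the mean of all its probe sets, Fech was called in neither ventricle (-0.28, adjusted p = 0.0804; -0.38, adjusted p = 0.0580), nor was Ppox (0.02 and 0.05).

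**Figure D4:**
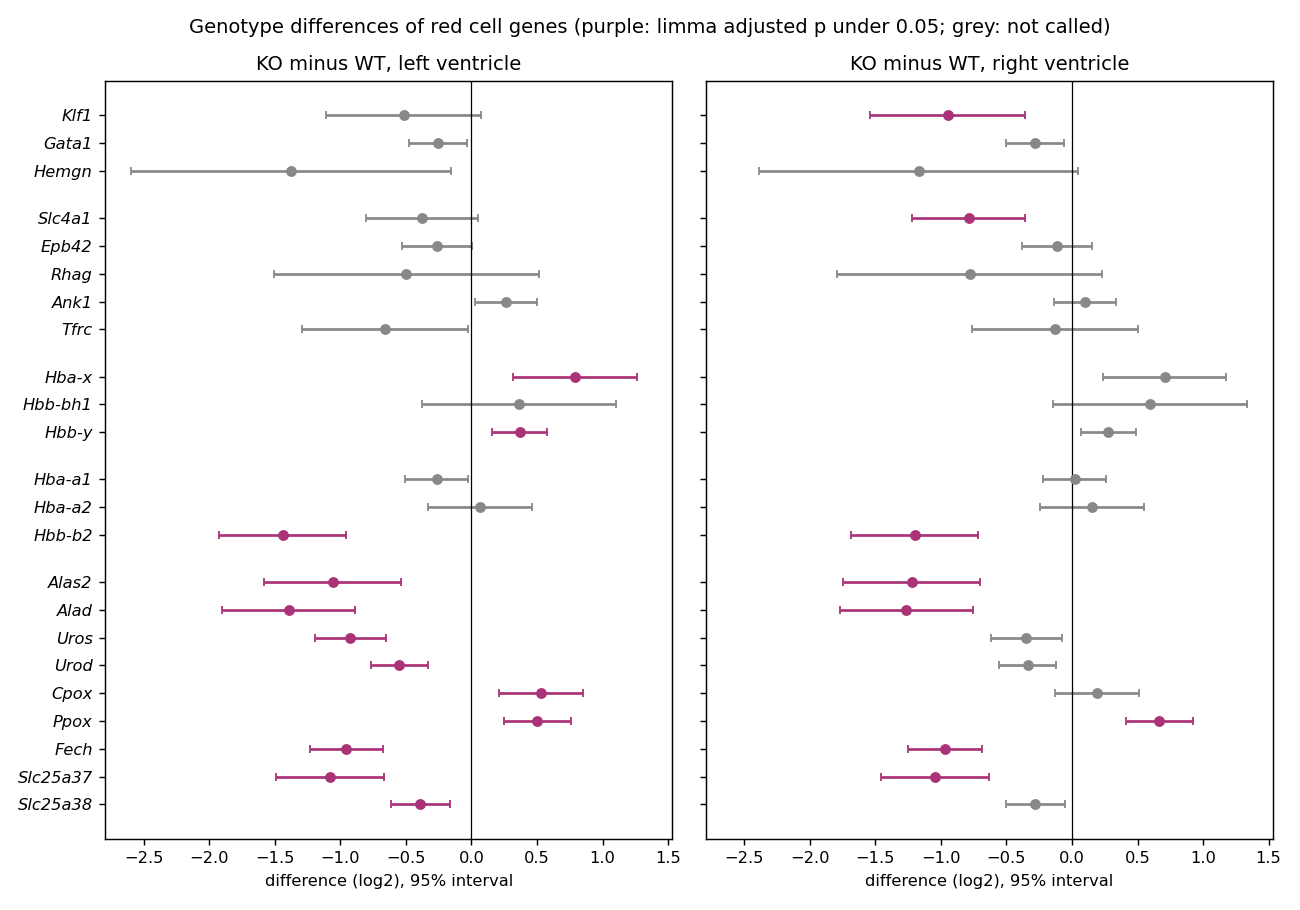
KO minus WT differences (log2) with 95% intervals are plotted for the 8 genes, 6 globins and 9 haem synthesis genes in each ventricle, purple where limma's adjusted p was under 0.05. Slc4a1 and Klf1 are purple in RV and no gene of the group in LV, whereas haem genes spread to both sides of 0 in both ventricles.

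The shares called in the other red cell lists were mostly near or under those of all genes in LV (30.9%): 17.6% of further membrane and skeleton genes, 33.3% of late erythroid genes, 35.3% of further regulators and 30% of iron handling genes. In RV, where 8.19% of all genes were called, they were 23.5%, 20%, 5.88% and 10%. Of 17 further membrane and skeleton genes, the median difference was -0.12 in LV and -0.22 in RV; Rhd (-0.52 in each ventricle) and Cd47 (-0.41 in LV) were called lower, Kel (-0.69) and Sptb (-0.39) in RV, and the glucose transporter Slc2a1, which heart cells also make, was higher (0.97 and 0.80). When WT_RV replicate 1 was left out, none of these was called lower in RV, against 3 with it, and 4 instead of 2 were called lower in LV. Of 15 late erythroid genes, 4 were called lower and 1 higher in LV, and 3 lower in RV. Trim10 was lower in both (-0.58 and -0.84), Mkrn1 (-0.82) and Blvrb (-0.73) in LV, and the carbonic anhydrase Car2 (-1.0) and Prdx2 (-0.32) in RV, while catalase, Cat, was higher in LV (0.59). The Prdx2 mean was lower in KO in LV as well, at 13.1 against 13.54 in WT.
Of 17 further regulators of blood cell formation, 5 were called higher and 1 lower in LV and 1 higher in RV. The erythropoietin receptor, Epor, was the lower one (-0.50), and Kit (0.79 in LV, 0.41 in RV), Cbfa2t3 (0.56) and Zfpm1 (0.51) led the higher ones. Gata2 (0.30 in LV), which endothelial cells also express, was among the higher ones. Of 10 iron handling genes none was called lower; Aco1 (0.67), Hfe (0.44) and Slc40a1 (0.37) were higher in LV, and Hfe in RV (0.65). In the fit without WT_RV replicate 1, 7 regulators were called higher and 2 lower in LV, 4 iron handling genes were higher in LV and 2 in RV, and 1 late erythroid gene was higher in RV.

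Markers of other blood and heart cells give the setting of these values. Their counts stand beside 30.9% of all genes called in LV and 8.19% in RV. Of 15 macrophage and leukocyte genes 12 were called higher in KO in LV, led by Laptm5 (1.47), Ptprc (1.40) and Ctss (1.31), and 4 in RV, led by C1qb (0.92), Ptprc (0.76) and Ctss (0.58); none was lower. Their mean level was 7.74 to 7.85 in KO_LV against 7.04 to 7.18 in WT_LV, and 7.19 to 7.53 in KO_RV against 6.96 to 7.11 in WT_RV. Of 10 platelet genes 2 were higher in LV (Itgb3, 0.66, and Tubb1, 0.46) and 1 in RV (Itgb3, 0.50), and of 9 granulocyte and mast cell genes 2 were lower in LV (Mpo, -0.42, and Camp, -0.37) and none in RV.
Of 10 endothelial genes 7 were higher in LV, led by Vwf (1.46), Cdh5 (1.08) and Tek (0.72), and 1 in RV (Vwf, 0.70). Of 12 cardiomyocyte genes 3 were higher in LV (Myh6, 1.76, Actn2, 0.54, and Myh7, 0.31) and 2 in RV (Myh6, 1.33, and Myl7, 0.40). The fit without WT_RV replicate 1 differed in that 1 cardiomyocyte gene and 5 macrophage and leukocyte genes were higher in RV, and 1 granulocyte and mast cell gene was lower in LV. These markers and the red cell genes were read from the same pools, and the part of a changed tissue make-up in the red cell differences was not tested.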

How the data were processed

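The deposited values are log2 expression, made by the authors with RMA per the submitters' processing notes; the log2 scale follows from RMA and from the range of 2.42 to 15.19. RNA was extracted with a column kit and 100 ng was labelled, per the labels' protocols. Because RMA equalises the distribution of values over arrays, a general rise or fall would not be seen. Versions, scanner files and detection calls were not given in the sources used here or not analysed here. Of 45101 probe sets, 34958 had 1 symbol, 932 several and 9211 none; 34754 matched a RefSeq table (GRCm38.p6) by gene ID and 0 symbols changed. For 9012 genes with several sets the one with the highest mean was used.

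One limma model (4 group means, 12 arrays) gave 5 comparisons, with Benjamini-Hochberg adjustment over 18194 genes, or over all probe sets where probe sets are compared, and a threshold of 0.05. All adjusted p-values are limma's. On simulated data for KO minus WT in LV (18194 genes, 200 changed by 1 on the log2 scale) it called 192 of the 200 and 8 others. The simulated noise was normal and independent between genes and arrays, with no other group differences. The counts therefore check the code and are not error rates for the real arrays. Single array measures were compared by two-sided exact permutation. The genes and lists were chosen with earlier results of these data known, so lists carry no test. Named were all 9 genes, Nos3 and every measured globin. Also named were up to 3 called genes per direction of each other list, and the 8 genes of most like pattern (clone names passed over). Fech was named after its values were seen, and Gata2 and Urod were also named outside this rule. Arrays with the same replicate number were correlated over all genes after the group means were taken off. Pearson r was 0.111 to 0.306 between WT_RV and KO_RV and 0.21 to 0.291 between KO_LV and KO_RV. It was 0.011 to 0.423 between WT_LV and KO_LV and -0.008 to 0.231 between WT_LV and WT_RV. Arrays of unlike number were not compared, so these values do not show a pairing. The fits used limma 3.58.1 in R 4.3.3. Permutations used scipy 1.17.1 under Python 3.11.15, with plots by matplotlib 3.10.9.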

Additional observations from a re-analysis of the deposited data

How the results depend on the processing

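No direction of a called gene of the group reversed under the settings tried. In LV, 1 of the 8 genes was called higher (none in the fit reported) under median centring of arrays, array weights, a fixed replicate block, and without WT_RV replicates 1 and 3, a setting chosen after seeing the data; called lower were 1 with array weights, 2 with the fixed replicate block, 3 with only the 2 groups compared, 1 with a poly-A term and 3 without WT_RV replicates 1 and 3. In RV the 2 genes called lower became 1 with the mean of a gene's probe sets, with median centring and with an intensity trend and robust variances, and 0 with array weights, with only the 2 groups, at a threshold of 0.01 and without WT_RV replicates 1 and 3. In WT, RV minus LV, 1 gene was called higher with the mean of sets, array weights and either replicate block, and in KO 1 with array weights. With 1 array left out the counts ranged from 0 to 1 higher and 0 to 3 lower in LV, 0 to 2 lower in RV and 0 to 1 higher in WT, RV minus LV. The RV count was 0 without WT_RV replicate 1, KO_RV replicate 2 or KO_RV replicate 3.

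Over all genes the LV count of 5617 became 3093 at a threshold of 0.01 and 2601 with a poly-A term (4064 to 6319 with 1 array left out). The RV count of 1490 became 2858 with array weights, 928 with only the 2 groups, 533 at 0.01, 810 with a poly-A term and 476 without WT_RV replicates 1 and 3 (762 to 1813). The interaction count of 4 became 2 with the mean of sets, 1364 with array weights, 2 with a fixed and 8 with a random replicate block, 2 at 0.01 and 2 without WT_RV replicates 1 and 3 (2 to 1309, the highest without WT_RV replicate 3). In WT, RV minus LV, 179 became 2212 with array weights, 270 with a random replicate block, 41 with only the 2 groups, 60 at 0.01 and 74 with a poly-A term (62 to 1734, the highest without WT_RV replicate 3). In KO 208 became 684 with array weights, 314 with only the 2 groups and 93 at 0.01 (104 to 321). The cause of these shifts was not tested. Of the LV calls 60.1% were higher in KO, 77.9% with median centring and 50.9% with quantile normalization once more. For the RV calls the shares were 56.2%, 69.5% and 51.9%.

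In RV the fixed replicate block kept the count of 2 genes lower in KO (limma adjusted p = 0.0114 for Slc4a1, 0.0315 for Klf1). The labels give only a running number within each group, so whether equal numbers share a batch is not known. Probe sets of Epb42 and Rhag read near the lower end of the scale, where log2 differences are compressed, so small falls in them are hard to see.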
